A study of Mus musculus with 38 samples.

Results

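The type I interferon-stimulated genes described here are 49 named genes that were taken by symbol from the table of raw counts, and all 49 are among its 53801 genes. They were followed in 38 libraries of polyadenylated RNA from mouse microglia, the resident macrophages of the brain, sorted as viable CD11b+ cells. All mice were C57BL/6J, aged 3 months, hemizygous for a bacterial artificial chromosome that carries human TREM2 with its own regulatory elements (huTrem2 BACtg) and homozygous for a knocked-in human part of the transferrin receptor (hTfR KI). The artificial chromosome had been altered so that neither TREML1 nor TREML2 is made from it. The antibody transport vehicle (ATV) binds that human part of the receptor and carries an antibody from blood into brain. DNL919, an antibody against human TREM2 on this vehicle, taken here as the study's ATV:TREM2, was given once at 10 mg/kg and mice were collected on day 1, day 4 or day 7 (8 libraries each). ATV:DNP02, an antibody taken here as the isotype (10 mg/kg on the ATV, 8 libraries), and Vehicle (6 libraries) were collected on day 1 only. Day 4 and day 7 are therefore set against controls of day 1, and day and treatment cannot be told apart there. Each group was spread over 4 takedown batches. Females came from batches 1 and 2 and males from batches 3 and 4, and sex cannot be told apart from those batches. For the tissue, one label names cortex with hippocampus and another names brain without cerebellum.

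Type I interferons are secreted cytokines that bind the receptor pair IFNAR1 and IFNAR2. The receptor turns on ISGF3, a complex that holds STAT2 and IRF9 and binds a promoter element called the interferon-stimulated response element (ISRE). The genes that it turns on encode antiviral proteins: sensors of viral RNA and DNA, proteins that block viral translation or entry, and the ubiquitin-like modifier ISG15. In microglia an interferon-stimulated state is known from infection, ageing and amyloid models.

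The ISRE letters are shown first, as a sequence feature that did not enter the choice of the genes. RefSeq promoters on build GRCm38.p6, the build of the counts, were given for 37 of the 49 members, each with 250 bases before and 50 bases from a RefSeq start. The window listed for Phf11d lay outside the span of the gene that was counted, and it held no ISRE match. The motif GAAA, any 2 bases, GAAA (on the other strand TTTC, any 2 bases, TTTC) was in at least 1 listed promoter of 16 of these 37 members, and of 1079 of all 27025 genes with a promoter (3.99%). The 6 promoters below are those of Rsad2, the member with the largest fitted day 1 change; of Isg15, which held 3 overlapping matches; of the paralogs Ifit3 and Ifit3b; of Ifitm3, whose 2 matches lie behind the start; and of Uba7, a member that was not called on day 1. They run 5′ to 3′ along the gene, with capitals for the bases of an ISRE match, and the last 50 bases follow the start.
Rsad2, chr12:26456403-26456702, minus strand: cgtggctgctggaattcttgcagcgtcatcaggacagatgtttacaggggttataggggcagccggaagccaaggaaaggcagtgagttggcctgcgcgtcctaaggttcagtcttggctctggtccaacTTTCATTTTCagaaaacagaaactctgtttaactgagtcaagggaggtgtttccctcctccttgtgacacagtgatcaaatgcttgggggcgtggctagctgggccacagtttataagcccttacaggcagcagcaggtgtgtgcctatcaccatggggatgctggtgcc
Isg15, chr4:156200769-156201068, minus strand: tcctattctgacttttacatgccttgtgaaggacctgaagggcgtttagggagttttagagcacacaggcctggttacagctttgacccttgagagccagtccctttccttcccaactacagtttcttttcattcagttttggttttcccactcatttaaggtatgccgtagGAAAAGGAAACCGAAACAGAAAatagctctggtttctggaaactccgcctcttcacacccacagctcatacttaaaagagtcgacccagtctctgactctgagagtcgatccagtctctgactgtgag
Ifit3, chr19:34583279-34583578, plus strand: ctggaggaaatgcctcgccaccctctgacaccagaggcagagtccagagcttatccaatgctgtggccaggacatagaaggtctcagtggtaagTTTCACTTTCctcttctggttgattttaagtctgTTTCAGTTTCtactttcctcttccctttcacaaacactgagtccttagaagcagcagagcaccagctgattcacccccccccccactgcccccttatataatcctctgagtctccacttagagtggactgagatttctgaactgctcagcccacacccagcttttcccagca
Ifit3b, chr19:34607707-34608006, plus strand: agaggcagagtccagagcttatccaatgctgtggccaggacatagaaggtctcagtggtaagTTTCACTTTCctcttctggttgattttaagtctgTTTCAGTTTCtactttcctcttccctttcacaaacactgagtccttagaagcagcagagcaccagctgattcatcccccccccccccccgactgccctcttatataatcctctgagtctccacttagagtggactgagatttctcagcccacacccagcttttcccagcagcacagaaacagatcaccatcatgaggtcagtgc
Ifitm3, chr7:141010695-141010994, minus strand: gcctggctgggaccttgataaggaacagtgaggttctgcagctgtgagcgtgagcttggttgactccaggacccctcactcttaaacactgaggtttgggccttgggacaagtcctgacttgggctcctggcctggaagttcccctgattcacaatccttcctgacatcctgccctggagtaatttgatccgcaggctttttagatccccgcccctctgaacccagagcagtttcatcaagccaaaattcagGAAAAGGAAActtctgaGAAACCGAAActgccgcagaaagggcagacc
Uba7, chr9:107975317-107975616, plus strand: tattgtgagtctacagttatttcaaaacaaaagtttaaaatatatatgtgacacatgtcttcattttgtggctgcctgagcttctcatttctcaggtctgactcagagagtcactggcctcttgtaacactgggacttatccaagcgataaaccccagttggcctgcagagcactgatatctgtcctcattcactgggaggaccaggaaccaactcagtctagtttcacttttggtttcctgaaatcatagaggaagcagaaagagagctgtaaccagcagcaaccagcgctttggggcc
The first capital of Isg15 lay 78 bases before the start, and its 3 matches follow each other in steps that share letters. Shifted by 32 bases with no gap allowed, the promoters of Ifit3 and Ifit3b were identical at 201 of 268 bases (75%), and both matches kept their spacing. The bases after a run of c fall out of step, so this count understates how alike the promoters are. No match lay in the window of Uba7, which says only that these letters are not in it. Among the tested members, the median day 1 change (log2, DNL919 against ATV:DNP02) was 2.62 for the 15 with a match and 2.65 for the 19 with a promoter and no match.

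Of the 49 members, 46 passed the filter on low counts and were tested, as were 11189 genes in all. Oas3, Phf11d and Trex1 did not pass. In the text, levels are CPM (counts per 1000000, on TMM-scaled library totals), given as the lowest, the median and the highest library of a group, changes are log2 fold changes of limma-voom with their standard error (SE) over all 38 libraries, and a gene is called at a Benjamini-Hochberg adjusted p under 0.05 over all 11189 genes. A CPM compares libraries for 1 gene and does not compare genes, since it does not account for length. In bulk RNA, fewer cells of a type and less RNA per cell cannot be told apart.

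Library totals ran from 1650141 to 6418858 counts. DNL919 day 1 was deeper, with totals from 2911439 to 6418858 against 1650141 to 3480521 in ATV:DNP02, and had a lower share of noncoding transcripts, with 2.33 to 5.30% against 4.73 to 8.74%. Of the 6 microglial markers in the table (among them P2ry12, Tmem119 and Cx3cr1), none was at 0 in any group, and their summed level had a median of 5349 CPM on DNL919 day 1 and of 9937 CPM in ATV:DNP02. Of these 6, 3 fell on day 1 against ATV:DNP02. Over all genes tested 20.8% rose and 15% fell there, shares that also stand beside the marker counts below. From ATV:DNP02 to DNL919 day 1 the median went from 4630 to 1443 CPM for P2ry12, 1493 to 997.8 for Cx3cr1, 213.9 to 73.4 for Sall1 and 1557 to 974 for Csf1r. It went from 688.4 to 698.7 CPM for Tmem119 and from 1218 to 1201 CPM for Fcrls. Markers of other cells gave 0 calls up among border-associated macrophage (8 tested, 2 down), monocyte (4 tested) and neutrophil genes (3 tested), and no T and NK cell gene passed the filter. The summed neutrophil genes had a median of 0 to 2.07 CPM by group and reached 568.8 CPM in ATV:DNP02 and 228.3 CPM on DNL919 day 1, but 7099 CPM in DNL919 day 4 replicate 6 and 46220 CPM in DNL919 day 7 replicate 7. Monocyte genes summed to 3.53 to 238.8 CPM in ATV:DNP02 and 15.2 to 221 CPM on DNL919 day 1, and to 3058 CPM in DNL919 day 7 replicate 7. The list for plasmacytoid dendritic cells, which make much interferon, had 2 of 4 tested genes up and 2 down. Those up were Bst2, itself a member, and Cox6a2, and those down were Siglech and Tcf4, which microglia also express. Without Bst2, the list summed to 1940 to 2498 CPM in ATV:DNP02 and 991.7 to 1838 CPM on DNL919 day 1, with medians for Siglech alone of 2127 and 1060 CPM. Its Klk1 was at 0 in all libraries, its Ccr9 had at most 2 counts in a group, and its Cox6a2 had 2.00, 10.1 and 14.1 CPM in ATV:DNP02 and 27.2, 79.4 and 116 CPM on DNL919 day 1, with a change of 3.24 ± 0.55 (SE, adjusted p = 7.84e-06). The part of these cell markers in the results was not tested. 4 libraries stood apart in the members themselves, namely DNL919 day 4 replicate 6, whose members were near the control level, DNL919 day 1 replicate 8, the lowest of its group, and Vehicle replicates 5 and 6, which lay above the other Vehicle libraries. Counts of members that rest on them are given with and without them, a choice made after seeing the data.

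The first comparison asks how the list differed 1 day after the TREM2 antibody from the isotype on the same vehicle. Nearly the whole list was higher. On day 1, 43 of the 46 tested members rose and 0 fell (Uba7 fell in some alternatives, given with that gene), where 20.8% of all genes tested rose and 15% fell. The median change of the members was 2.91, beside 0.01 over all genes, and single members ran from -0.49 (Uba7) to 7.81 (Rsad2). The lowest DNL919 day 1 library was above the highest ATV:DNP02 library for 22 members, a pattern that 5.54% of all genes showed, and without DNL919 day 1 replicate 8 for 30 members (all genes: 7.9%). All 49 members together took 0.197 to 0.822% of the counts (median 0.629%) on DNL919 day 1 and 0.0641 to 0.132% (median 0.0929%) in ATV:DNP02, and the groups did not overlap. Against Vehicle, which shares the day 1 libraries of DNL919 with this comparison, 39 of 46 rose and 0 fell (all genes: 19% rose, 14.4% fell), with a median of 2.56 and 19 members above every Vehicle library (all genes: 6.69%), or 29 without DNL919 day 1 replicate 8 (all genes: 9.33%) and 31 without Vehicle replicates 5 and 6 (all genes: 8.43%). The 7 that did not pass there were Oas2, Ddx60, Adar, Uba7, Dtx3l, Trim25 and Samd9l.

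**Figure D1:**
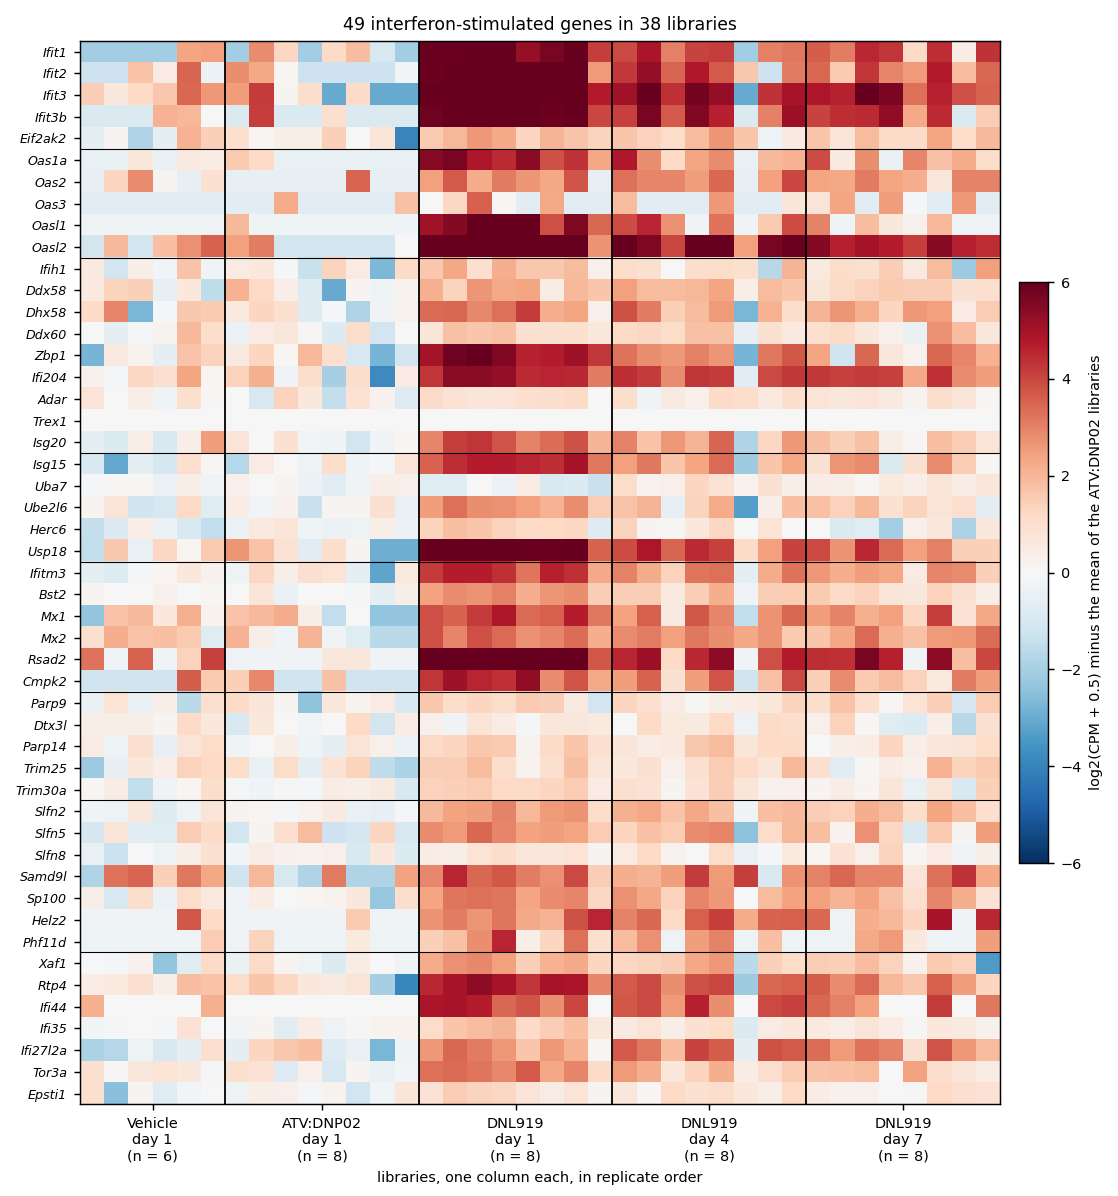
Level of each of the 49 members (rows, by role) in each of the 38 libraries (columns, by group), as log2(CPM + 0.5) minus the mean of the 8 ATV:DNP02 libraries. Colours end at -6 and 6; most rows turn red on DNL919 day 1 and are paler on days 4 and 7, DNL919 day 4 replicate 6 (the 6th column of its group) looks like the controls, and Trex1 is white at 0 counts throughout.

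The rise was present in each takedown batch. Within batches 1, 2, 3 and 4, the median member differed between DNL919 day 1 and ATV:DNP02 by 2.65, 3.24, 3.06 and 2.82 (log2 CPM), with 44 to 45 of 46 members higher. Within DNL919 day 1, replicate 8 had the lowest level of the 8 libraries for 40 of the 46 tested members, and replicates 2 and 3 had the highest for 15 and 12. The summed level of the 49 members was 2076 CPM in replicate 8 and 4951 to 8727 CPM in the other 7. Without replicate 8, 43 members rose. Leaving out each of the 38 libraries in turn gave 41 to 43. At equal depth, with every library thinned, 40 rose. A fit that also held the noncoding share of each library called 32. The males alone, with 4 libraries in each of the 2 groups and replicate 8 among them, gave 23.

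**Figure D2:**
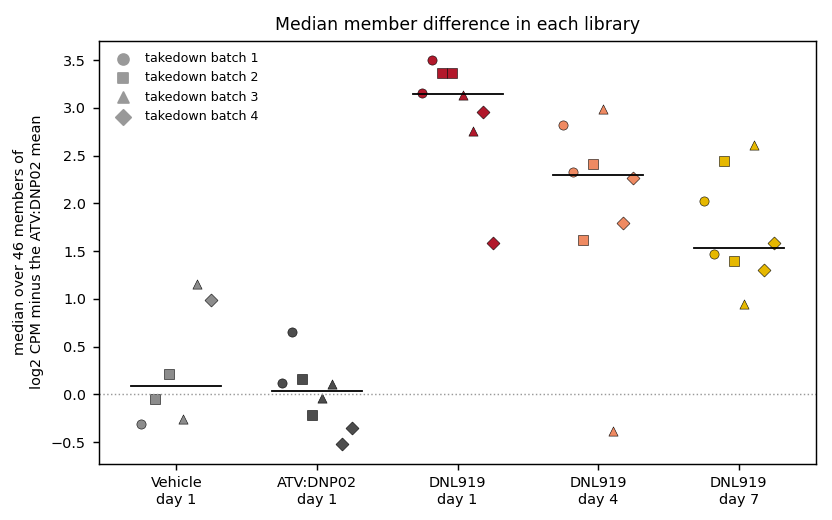
Median over the 46 tested members of the log2 CPM minus the gene's mean in ATV:DNP02, 1 point per library, with the shape for the takedown batch and a line at the group median. DNL919 day 1 lies at 1.58 to 3.50 and ATV:DNP02 at -0.52 to 0.65; DNL919 day 4 replicate 6 (-0.38) and Vehicle replicates 5 and 6 (1.15 and 0.99) stand away from their groups.

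The IFIT proteins bind viral RNA and hold back its translation, and PKR, encoded by Eif2ak2, stops translation when it meets double-stranded RNA. All 5 members of this class rose on day 1, with a median of 6.32. Ifit3 had 0, 5.89 and 71.98 CPM in ATV:DNP02, 5.73, 11.2 and 42.9 CPM in Vehicle and 109, 493 and 791 CPM on DNL919 day 1. The DNL919 libraries were all above both control groups, and the change was 6.08 ± 1.23 (SE, adjusted p = 0.000107). Ifit3b had 0, 0 and 15.5 CPM in ATV:DNP02, where 6 libraries held no count, and 14.1, 73.1 and 98.2 CPM on DNL919 day 1. Its groups touched, because ATV:DNP02 replicate 2 (15.5 CPM) was above DNL919 replicate 8 (14.1 CPM), and the change was 6.94 ± 1.15 (SE, adjusted p = 4.34e-06). Ifit3 and Ifit3b are close paralogs, and how reads that fit both were counted is not given in the sources used here, so the split between them is uncertain. Ifit1 and Ifit2 rose by 6.33 and 6.32, and Eif2ak2 by 1.62, the smallest rise of the class.

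The OAS enzymes make 2'-5'-oligoadenylates, which activate an RNase that cuts viral and cellular RNA, and some OAS-like proteins lack that activity. All 4 tested members of this class rose on day 1, with a median of 5.84. Oasl2 had 0, 0 and 8.64 CPM in ATV:DNP02, 0, 3.50 and 11.9 CPM in Vehicle and 6.53, 111 and 132 CPM on DNL919 day 1. DNL919 replicate 8 alone reached down into the controls, the other 7 libraries were at 81.1 CPM or more, and the change was 6.64 ± 1.28 (SE, adjusted p = 4.91e-05). Oas1a and Oasl1 rose by 5.38 and 6.30, with no overlap of the groups. Oasl1 had 0 counts in all 6 Vehicle libraries, and its pooled level on DNL919 day 1 was at least 159-fold higher than a floor of 3 counts over the Vehicle group. Oas2 rose by 3.34 against ATV:DNP02, and its change against Vehicle was 2.09 ± 0.91 (SE, adjusted p = 0.0728). Oas3 did not pass the low-count filter, with 47 counts in 5 of the 8 DNL919 day 1 libraries, 12 counts in 2 of the 8 ATV:DNP02 libraries and 0 in Vehicle. In the fit with no filter its day 1 change against ATV:DNP02 was 0.42 ± 0.88 (SE, adjusted p = 0.726 by limma-voom).

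Sensors of foreign or misplaced nucleic acid and the enzymes that edit or cut it form the next class, in which all 8 tested members rose on day 1 with a median of 2.30. Ifi204, a DNA sensor of the mouse IFI16 family, had 0, 11.8 and 30.6 CPM in ATV:DNP02, 6.14, 10.8 and 35.7 CPM in Vehicle and 61.6, 168 and 300.2 CPM on DNL919 day 1. The groups did not overlap, with a change of 4.36 ± 0.70 (SE, adjusted p = 2.65e-06). Zbp1, a sensor of Z-form nucleic acid that can start cell death, had 0, 3.83 and 12.6 CPM in ATV:DNP02 and 65.3, 112 and 252 CPM on DNL919 day 1. Every DNL919 library was above every control library, and the change of 5.29 ± 0.79 (SE, adjusted p = 6.02e-07) was the largest of the class. Isg20, an exonuclease, rose by 3.38, and the RNA helicase sensors Dhx58, Ddx58 (RIG-I) and Ifih1 (MDA5) rose by 2.95, 1.64 and 1.40. Ddx60 and Adar, the RNA editor, rose by 1.13 and 0.88. Trex1, a DNA exonuclease, is listed at 0 in all 38 libraries. It lies within another annotated gene on the same strand (RP24-212K17.7), so its 0 cannot be read as absence of its RNA.

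ISG15 is attached to other proteins by an E1 enzyme (Uba7), an E2 enzyme (Ube2l6) and, in mice, the E3 ligase Herc6, and Usp18 takes it off again and also damps signalling at IFNAR2. In this chain 4 of 5 members rose on day 1, and the exception was Uba7. Usp18 had 0, 5.09 and 22.8 CPM in ATV:DNP02, 0.849, 6.03 and 11.1 CPM in Vehicle and 43.5, 256 and 409 CPM on DNL919 day 1. The groups did not overlap, and the change was 5.63 ± 0.73 (SE, adjusted p = 3.79e-08). Isg15 rose by 4.52, Ube2l6 by 2.65 and Herc6 by 1.24. Uba7 had 27.8, 45.6 and 57.1 CPM in ATV:DNP02, 33.1, 42.7 and 56.9 CPM in Vehicle and 16.7, 25.5 and 58.7 CPM on DNL919 day 1. Its DNL919 day 1 libraries overlapped the controls but had the lower median, and the change was -0.49 ± 0.22 (SE, adjusted p = 0.0787). Uba7 was called lower on day 1 in 6 of 53 alternatives: library totals in place of TMM, a minimum count of 50, sample quality weights, and the fits without DNL919 day 1 replicate 3, without DNL919 day 1 replicate 5 and without ATV:DNP02 replicate 5. The changes there ran from -0.71 to -0.55, with adjusted p from 0.00686 to 0.0492. Uba7 overlaps another annotated gene on its strand by 1003 bases, and Herc6 one by 45031 bases, so reads may be split in both.

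Membrane proteins that block entry or release of viruses, the dynamin-like Mx GTPases and enzymes that act on nucleotides form a class in which all 6 members rose on day 1, with a median of 3.90. Ifitm3, which hinders fusion of viral and cell membranes, had 10.6, 139 and 234 CPM in ATV:DNP02, 57.3, 100 and 155 CPM in Vehicle and 471, 2069 and 2586 CPM on DNL919 day 1. The lowest DNL919 library, at 471.4 CPM, was above all 14 control libraries, and the change was 4.00 ± 0.43 (SE, adjusted p = 4e-10). Bst2 (tetherin), which holds budding virions at the cell surface, had 35.3, 51.8 and 86.4 CPM in ATV:DNP02, 51.7, 54.3 and 63.3 CPM in Vehicle and 149, 338 and 429 CPM on DNL919 day 1. It was clear of both control groups, and its change of 2.52 ± 0.23 (SE, adjusted p = 6.47e-12) had the smallest adjusted p of the list. Rsad2 (viperin), which makes a chain-terminating nucleotide, had 0, 0 and 0.427 CPM in ATV:DNP02, where 2 libraries held 1 count each, and 7.25, 75.6 and 150.1 CPM on DNL919 day 1. Vehicle had 0, 3.06 and 9.37 CPM, with 47 counts in 4 of 6 libraries, and overlapped DNL919 replicate 8. The fitted change was 7.81 ± 1.28 (SE, adjusted p = 3.83e-06) against ATV:DNP02 and 5.27 ± 1.20 (SE, adjusted p = 0.000553) against Vehicle. Over pooled counts the ratio was 738 against ATV:DNP02 (2460 and 2 counts, 95% interval 204 to 6096 for counting error only) and 22.9 against Vehicle (17.2 to 31.3), so the size of the fold depends on a control group near 0. Cmpk2, its neighbour on the chromosome, rose by 4.52. Mx2, which the table lists as a polymorphic pseudogene, had 0, 0.827 and 6.02 CPM in ATV:DNP02 and 6.53, 13.3 and 22.4 CPM on DNL919 day 1, with no overlap and a change of 3.35 ± 0.52 (SE, adjusted p = 1.36e-06). Vehicle, with 0.426, 4.36 and 6.55 CPM, overlapped DNL919 day 1 for Mx2. Mx1 rose by 3.81.

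**Figure D3:**
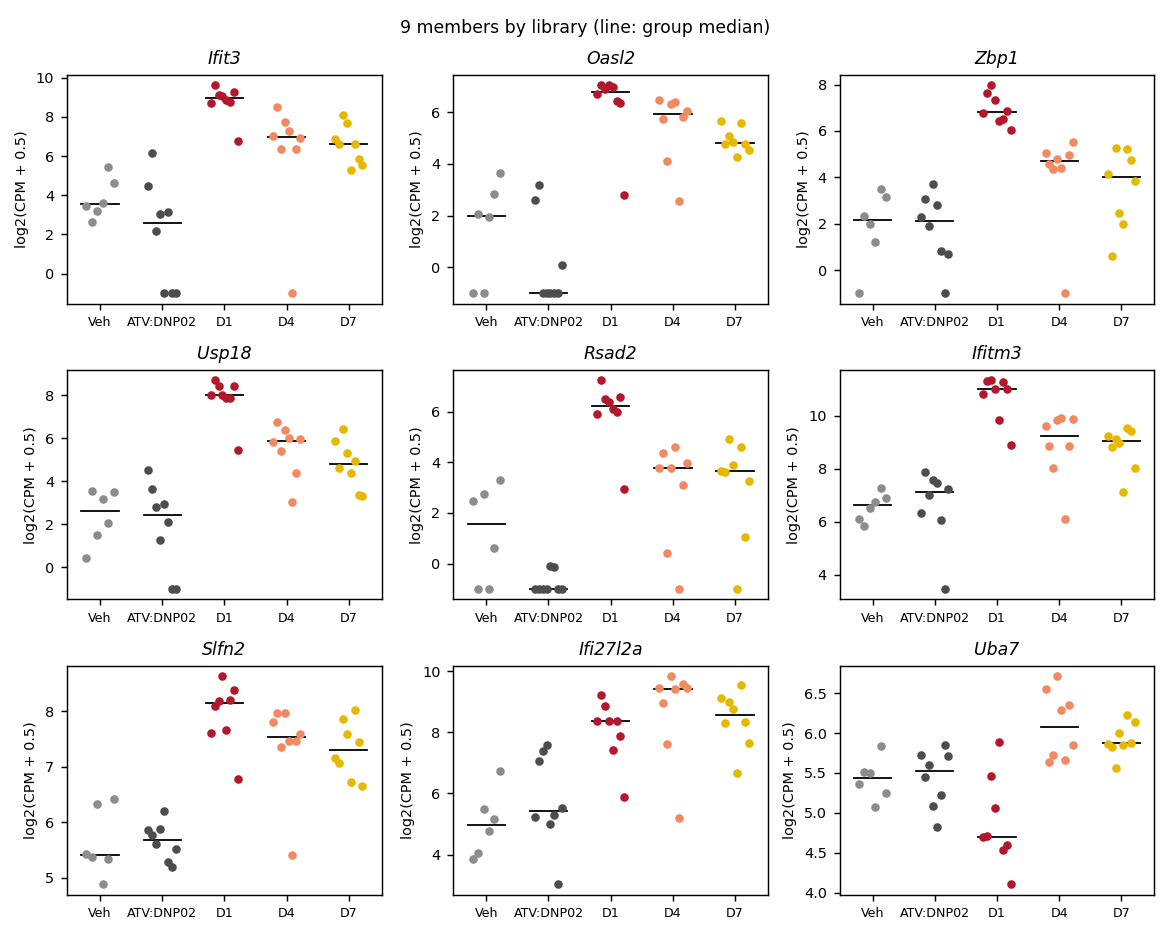
Level of 9 members, as log2(CPM + 0.5), with 1 point per library, a line at the group median, and the groups Vehicle, ATV:DNP02 and DNL919 on days 1, 4 and 7 (D1, D4, D7). In 8 panels the median of DNL919 day 1 is above both control medians; Uba7 has its lowest median on day 1 and its highest on day 4, and Ifi27l2a its highest median on day 4.

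The ADP-ribosyltransferases and ubiquitin ligases had the lowest median change of the 8 classes. It was 0.89 on day 1, 3 of 5 rose, and 2 of the 3 tested members that did not rise on day 1 were among them. Trim30a, a mouse ubiquitin ligase that tempers inflammatory signalling, had 29.4, 56.7 and 82.4 CPM in ATV:DNP02 and 79.8, 144 and 165 CPM on DNL919 day 1. The ranges met at their ends, and the change was 1.26 ± 0.25 (SE, adjusted p = 6.09e-05). Parp14 and Parp9 rose by 1.18 and 0.87. Dtx3l, the ligase that works as a pair with Parp9, had 5.88, 12.8 and 30.7 CPM in ATV:DNP02 and 11.5, 19.2 and 22.7 CPM on DNL919 day 1, with a change of 0.35 ± 0.33 (SE, adjusted p = 0.431). Parp9 and Dtx3l overlap on opposite strands, and the strand setting of the counting is not given in the sources used here. Trim25, which ubiquitinates the sensor RIG-I, had 1.66, 9.93 and 19.8 CPM in ATV:DNP02 and 9.02, 19.2 and 30.2 CPM on DNL919 day 1, with a change of 0.89 ± 0.46 (SE, adjusted p = 0.125). Trim25 was called higher on day 1 in 2 of 53 alternatives, sample quality weights (adjusted p = 0.0111) and the fit without DNL919 day 1 replicate 5 (adjusted p = 0.0327), and Dtx3l in 0 of 53. All 8 DNL919 day 1 libraries lay within the range of ATV:DNP02 for Dtx3l, and the groups overlapped for Trim25 with the higher median on DNL919.

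Schlafen proteins act on tRNA and translation and keep lymphocytes quiescent, Samd9l restricts viral growth, and Sp100 and Helz2 are nuclear proteins. In this class all 6 tested members rose on day 1, with a median of 2.67. Slfn2 had 35.9, 50.97 and 72.6 CPM in ATV:DNP02, 28.9, 41.7 and 85.1 CPM in Vehicle and 109, 281 and 396 CPM on DNL919 day 1. The groups did not overlap, and the change was 2.28 ± 0.26 (SE, adjusted p = 2.41e-09). Sp100, a part of nuclear bodies, had 2.35, 14.98 and 28.3 CPM in ATV:DNP02 and 31.9, 101 and 134 CPM on DNL919 day 1, again with no overlap and a change of 2.71 ± 0.40 (SE, adjusted p = 5.07e-07). Samd9l had the largest fitted change of the class, 3.85 ± 0.90 (SE, adjusted p = 0.000665), on few counts: 0, 0.331 and 14.5 CPM in ATV:DNP02 and 4.35, 16.1 and 40.9 CPM on DNL919 day 1. Vehicle, with 0, 11.5 and 18.9 CPM, overlapped DNL919 day 1 for this gene, and the change against Vehicle was 1.42 ± 0.77 (SE, adjusted p = 0.154). Helz2 rose by 3.84, on 145 counts against 3 (ratio 29.0, 95% interval 9.73 to 142.2) in ATV:DNP02. Vehicle held 16 counts in 2 libraries, the ratio of Helz2 to it was 3.97 (2.36 to 7.13), and its highest library (7.24 CPM) was above the lowest of DNL919 day 1 (2.00 CPM). Slfn5 and Slfn8 rose by 2.62 and 0.63, and the call of Slfn8 was close to the threshold (adjusted p = 0.0455). Phf11d did not pass the low-count filter, with 94 counts in all 8 DNL919 day 1 libraries and 4 counts in 2 ATV:DNP02 libraries. In the fit with no filter limma-voom called it higher, by 2.43 ± 0.74 against ATV:DNP02 (SE, adjusted p = 0.00965) and by 2.77 ± 0.75 against Vehicle (adjusted p = 0.00437).

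The remaining members are interferon-induced proteins of mixed or less settled function, and all 7 rose on day 1, with a median of 2.28. Ifi27l2a, a small membrane protein, had 7.65, 42.3 and 189.6 CPM in ATV:DNP02, 14.01, 31.1 and 106 CPM in Vehicle and 58.02, 329 and 600.3 CPM on DNL919 day 1. Both control groups overlapped DNL919 day 1 at the edges, and the change was 2.17 ± 0.50 (SE, adjusted p = 0.000558). Ifi44 had 0 counts in all 8 ATV:DNP02 libraries, 8 counts in 2 Vehicle libraries and 283 counts in 7 of 8 DNL919 day 1 libraries. Its pooled level was at least 56.6-fold higher than a floor of 3 counts over the ATV:DNP02 group, and limma-voom gave an adjusted p of 1.36e-05. With Ifi44 set to that bound, the median of the list stayed at 2.91. Rtp4, Tor3a (a torsin ATPase), Xaf1, Ifi35 and Epsti1 rose by 4.14, 2.87, 2.28, 1.48 and 0.91. Rtp4, and Sp100 of the class before, overlap another annotated gene on their strand by 39791 and 104 bases, so reads may be split there too.

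The later days ask how long the difference lasted after 1 dose. Days 1, 4 and 7 are all set against the same 8 ATV:DNP02 libraries, so the 3 sets of values share their controls. On day 4, 22 of 46 members were called higher and 0 lower (all genes: 1.58% higher, 0.223% lower), with a median of 1.99. On day 7, 11 were called higher and 0 lower (all genes: 1.3% higher, 0.206% lower), with a median of 1.54. Every one of the 46 had a positive day 4 change and 44 had a positive day 7 change, with Herc6 (-0.38) and Dtx3l (-0.13) below 0 on day 7. No member was free of overlap with ATV:DNP02 on day 4 (all genes: 0.107%), where replicate 6 lay at the control level, and 14 were without that library (all genes: 0.929%). On day 7, 3 were free of overlap, namely Oasl2, Ifi204 and Slfn2 (all genes: 0.259%). Over the other tools and settings the count ran from 0 (males alone) to 35 (sample quality weights) on day 4 and from 0 to 20, in the same settings, on day 7. Within batches 1 to 4 the day 4 medians were 2.05, 1.89, 1.24 and 2.10, and the day 7 medians were 1.04, 1.74, 1.58 and 1.85.

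**Figure D4:**
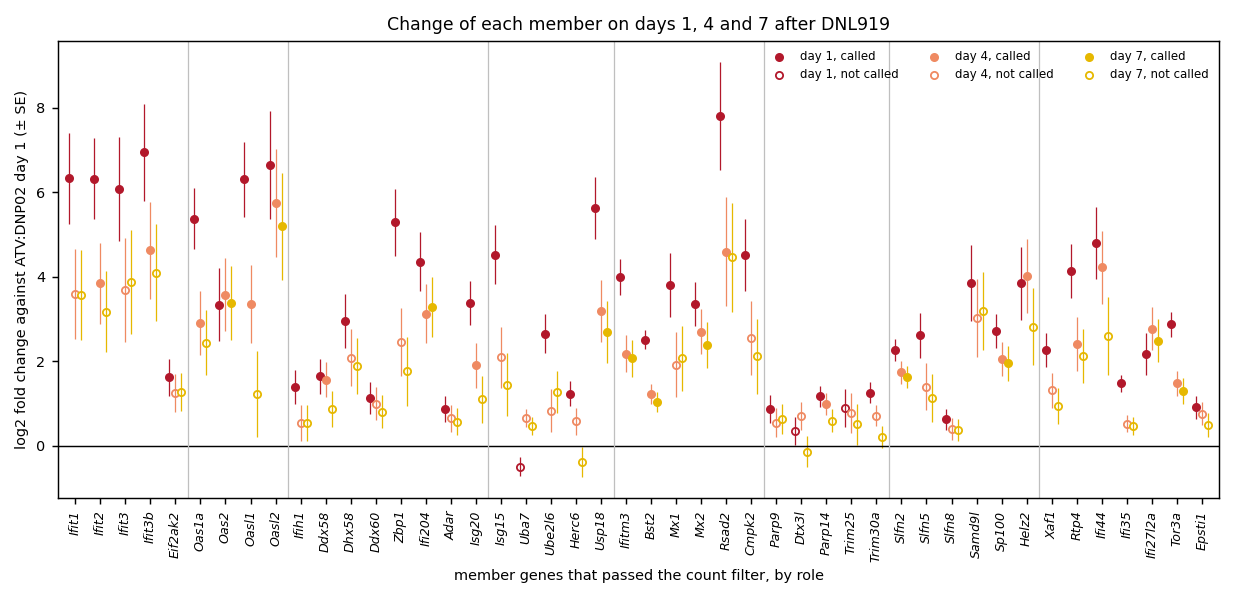
Log2 fold change of the 46 tested members against ATV:DNP02 day 1 on days 1, 4 and 7 after DNL919 (bars, SE of limma-voom), by role, with filled points for adjusted p under 0.05. Filled points number 43, 22 and 11; Rsad2 reaches 7.81 on day 1, and Uba7 is the member with a negative day 1 change.

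The day 4 count rested on single libraries. Without DNL919 day 4 replicate 6 it was 30, the same 22 members were among them, and the median was 2.27. It fell to 14 without DNL919 day 4 replicate 8 and likewise without ATV:DNP02 replicate 3, 4, 5 or 6. Without both DNL919 day 4 replicate 6 and DNL919 day 7 replicate 7, a pair chosen after seeing the data, 30 members were called on day 4 and 16 on day 7. Against Vehicle, which shares the DNL919 libraries, 8 members were called higher on day 4 and 0 lower (all genes: 0.929% higher, 0.152% lower), and 6 higher on day 7 and 0 lower (all genes: 0.858% higher, 0.107% lower). No member was above all Vehicle libraries on day 4 (all genes: 0.304%), 17 were without DNL919 day 4 replicate 6 (all genes: 1.54%), and Oasl2, Bst2 and Slfn2 were on day 7 (all genes: 0.366%). The day 4 members were Oasl2, Ifi204, Usp18, Ifitm3, Bst2, Slfn2, Sp100 and Ifi27l2a, and the day 7 members were Ifit3, Ifi204, Ifitm3, Slfn2, Sp100 and Ifi27l2a. The day 4 count against Vehicle was 21 without DNL919 day 4 replicate 6, 4 without Vehicle replicate 1, 3 without Vehicle replicate 2, 4 without Vehicle replicate 3 and 5 without Vehicle replicate 6. The day 7 count was 10 without DNL919 day 4 replicate 6, a library outside that comparison, and 2 without Vehicle replicate 1 or without Vehicle replicate 2.

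The test of day 4 against day 1, in which the controls do not enter the difference, found 23 members lower and 1 higher on day 4, where 18.1% of all genes were lower and 13.8% higher, with a median of -0.88. Zbp1 was the one member whose day 4 libraries were all below its day 1 libraries (all genes: 3.22%). It had 0, 25.4 and 45.04 CPM on day 4 and 1.02, 15.7 and 37.5 CPM on day 7, and day 4 against day 1 was -2.83 ± 0.46 (SE, adjusted p = 4.24e-06). Rsad2 had 0, 13.1 and 23.8 CPM on day 4 and 0, 11.96 and 29.9 CPM on day 7, and fell most between day 1 and day 4, -3.21 ± 0.66 (SE, adjusted p = 0.000152). Usp18 had 7.73, 58.5 and 108 CPM on day 4, 9.49, 27.2 and 85.3 CPM on day 7 and a difference between days of -2.44 ± 0.32 (SE, adjusted p = 7.8e-08). In these 3 genes the medians of the later days lay between those of the controls and of day 1. Their lowest libraries on both later days were within the range of ATV:DNP02. By class, the IFIT class had 4 of 5 members lower on day 4 than on day 1, the OAS class 2 of 4, the sensors and nucleases 4 of 8, the ISG15 system 3 of 5, the membrane and Mx class 5 of 6, the ADP-ribosyltransferases and ligases 0 of 5, the Schlafen and nuclear class 1 of 6 and the remaining members 4 of 7. The class differences in these counts were not tested. The 24 calls between day 4 and day 1 were 15 with the noncoding share in the fit, 6 in the males alone and 29 without DNL919 day 1 replicate 8. Without DNL919 day 4 replicate 6 they were 23, with 21 lower and 2 higher, the median was -0.73, and Zbp1 was still the one member with no overlap (all genes: 3.39%). Ifit3 had 0, 127 and 369 CPM on day 4 and 38.8, 98.1 and 277 CPM on day 7, and its day 4 level differed from day 1 by -2.39 ± 0.50 (SE, adjusted p = 0.000186). Ifit3b had 0, 18.8 and 46.1 CPM on day 4 and 0, 16.7 and 35.8 CPM on day 7, with -2.32 ± 0.49 (SE, adjusted p = 0.000222) between day 4 and day 1.

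Slfn2, Sp100, Oasl2 and Mx2 were called on days 1, 4 and 7, and their differences between day 4 and day 1 did not pass the test. Slfn2 had 41.8, 184 and 249 CPM on day 4 and 99.8, 158 and 260.3 CPM on day 7, with changes against ATV:DNP02 of 1.74 ± 0.27 (SE, adjusted p = 5.63e-05) and 1.63 ± 0.27 (SE, adjusted p = 0.000242). All 8 day 7 libraries were above all controls for this gene, and its difference between day 4 and day 1 was -0.54 ± 0.23 (SE, adjusted p = 0.0708). Sp100 had 13.2, 70.7 and 105 CPM on day 4 and 24.96, 59.1 and 105 CPM on day 7, with changes of 2.05 ± 0.41 (SE, adjusted p = 0.00228) and 1.95 ± 0.41 (SE, adjusted p = 0.0054). Its difference between day 4 and day 1 was -0.66 ± 0.29 (SE, adjusted p = 0.0722). Oasl2 had 5.45, 60.5 and 87.7 CPM on day 4 and 18.7, 27.6 and 49.3 CPM on day 7, with changes of 5.74 ± 1.27 (SE, adjusted p = 0.00698) and 5.19 ± 1.27 (SE, adjusted p = 0.0223). Its day 4 level differed from day 1 by -0.90 ± 0.40 (SE, adjusted p = 0.0836), and the day 7 libraries were above all controls. Mx2 had 4.09, 9.80 and 13.5 CPM on day 4 and 4.35, 7.91 and 15.8 CPM on day 7, with changes of 2.70 ± 0.53 (SE, adjusted p = 0.00205) and 2.39 ± 0.53 (SE, adjusted p = 0.0107), and its difference between day 4 and day 1 was -0.65 ± 0.32 (SE, adjusted p = 0.118).

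Ifi27l2a had a higher median on day 4 than on day 1. It had 36.4, 688 and 916 CPM on day 4 and 100.4, 378 and 744 CPM on day 7, with changes against ATV:DNP02 of 2.77 ± 0.50 (SE, adjusted p = 0.000866) and 2.49 ± 0.51 (SE, adjusted p = 0.00368). The difference between day 4 and day 1 was 0.60 ± 0.43 (SE, adjusted p = 0.301) and did not pass the test, and DNL919 day 4 replicate 6, at 36.4 CPM, was the lowest of the day 4 libraries. Without that library Ifi27l2a was called higher on day 4 than on day 1, by 0.97 ± 0.37 (SE, adjusted p = 0.0444). Oas2 and Helz2 had differences between day 4 and day 1 of 0.23 and 0.18, neither of which passed. With all libraries, Uba7 was the one member called higher on day 4 than on day 1, 1.14 ± 0.21 (SE, adjusted p = 2.92e-05). Its day 4 libraries had 49.2, 67.5 and 105 CPM and its day 7 libraries 46.9, 58.05 and 74.4 CPM, and against ATV:DNP02 the day 4 change was 0.66 ± 0.21 (SE, adjusted p = 0.0991). Dtx3l and Trim25 had medians of 24.1 and 15.01 CPM on day 4 and 15.2 and 13.2 CPM on day 7, and neither was called against ATV:DNP02 on any day with all libraries in the fit.

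Members called on day 7 but with smaller changes than on day 1 form a further group. Ifitm3 had 68.2, 629.5 and 971 CPM on day 4 and 139, 527 and 744 CPM on day 7, with changes of 2.19 ± 0.44 (SE, adjusted p = 0.00271) and 2.07 ± 0.44 (SE, adjusted p = 0.00669). Bst2 had 45.5, 147 and 238 CPM on day 4 and 69.9, 109 and 157 CPM on day 7, with changes of 1.23 ± 0.23 (SE, adjusted p = 0.00145) and 1.04 ± 0.24 (SE, adjusted p = 0.0122). Ifi204 had 4.09, 130.1 and 152 CPM on day 4 and 34.2, 122 and 149 CPM on day 7, with changes of 3.13 ± 0.70 (SE, adjusted p = 0.00833) and 3.29 ± 0.70 (SE, adjusted p = 0.00669). All 3 were lower on day 4 than on day 1, by -1.81, -1.28 and -1.23 (log2 difference). The other members called on day 7 were Oas2, Usp18 and Tor3a. Samd9l had 0.427, 9.54 and 31.4 CPM on day 4 and 2.51, 12.9 and 34.1 CPM on day 7, Trim30a 63.4, 99.97 and 160.2 CPM and 29.4, 70.3 and 155 CPM, and neither was called on those days. Ifi44 held 125 counts in 7 libraries on day 4, at least 37.3-fold above the ATV:DNP02 floor (adjusted p = 0.00316), and 51 counts in 5 libraries on day 7, at least 16.04-fold above it (adjusted p = 0.189). Between day 7 and day 4, 0 members were called by limma-voom, edgeR or DESeq2, as were 0% of all genes by limma-voom, and 5 of 46 members had an unadjusted p under 0.05 by limma-voom.

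ATV:DNP02, a whole antibody on the transport vehicle, was compared with Vehicle, so the part of the transport vehicle alone cannot be told apart. 0 members were called by limma-voom, edgeR or DESeq2, and 0% of all genes were called by limma-voom. With 6 Vehicle libraries, of which replicates 5 and 6 lay above the others, 0 calls do not show that the groups were alike. The median member change was -0.04, and 2 of 46 had an unadjusted p under 0.05, Samd9l (-2.43 ± 1.00, SE) and Mx2 (-1.35 ± 0.61), both lower in ATV:DNP02. Within batches 1 to 4 the median member differed by 0.56, -0.04, -0.30 and -1.62 (log2 CPM), with 1, 2, 2 and 1 Vehicle libraries. In batch 4, ATV:DNP02 was above its 1 Vehicle library for 8 of 46 members. The median day 1 difference from Vehicle was 1.41 in batch 4 and 3.45, 3.16 and 2.30 in batches 1, 2 and 3. Without Vehicle replicates 5 and 6, a pair chosen after seeing the data, 38 members rose on day 1 against Vehicle.

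The day 1 effect was also compared between the males of batches 3 and 4 and the females of batches 1 and 2. 0 members differed by limma-voom, edgeR or DESeq2 (all genes: 0% by limma-voom), and 0 had an unadjusted p under 0.05. The median difference over the members was 0.06 (males minus females, log2), beside 0.07 over all genes, and single members ran from -2.67 to 4.28. With 4 libraries of a sex in each group these differences have wide errors, so the test does not show that the sexes respond alike.

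The genes that make and sense type I interferon were read beside the list. Of 18 genes of the ligands (Ifnb1, the Ifna genes and others), 17 had 0 counts in both control groups, on day 4 and on day 7, and 16 on day 1. Ifnb1, interferon beta, was the one that passed the filter. It had 0, 0 and 7.99 CPM in ATV:DNP02, where 1 of 8 libraries held a count, and 0, 22.7 and 218 CPM on DNL919 day 1, where 7 of 8 did. The DNL919 libraries were spread widely and reached down to the controls, and the change was 5.39 ± 1.41 (SE, adjusted p = 0.00214). On day 4 it had 0, 2.92 and 98.3 CPM and a change of 3.66 ± 1.47 (SE, adjusted p = 0.246), and on day 7 0, 0 and 9.19 CPM and 0.81 ± 1.64 (SE, adjusted p = 0.911).

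Of 7 genes read for the receptor, its kinases, ISGF3 and Irf7, 3 rose and 1 fell on day 1 against ATV:DNP02, and 2 rose (Irf7 and Stat2) and 0 fell against Vehicle. Over all genes the shares were 20.8% up and 15% down against ATV:DNP02 and 19% and 14.4% against Vehicle. Irf7, a factor that drives interferon genes and is itself an interferon target, had 0, 2.46 and 14.04 CPM in ATV:DNP02 and 43.5, 147 and 267 CPM on DNL919 day 1, with no overlap and a change of 5.68 ± 1.06 (SE, adjusted p = 3.24e-05). Stat2 and Irf9 rose by 1.65 and 0.91 on day 1, and Irf9 by 0.88 on day 4. Ifnar2, a chain of the receptor, fell on day 1 by 0.47 on the log2 scale, with 75.95, 108 and 131 CPM in ATV:DNP02 and 59.2, 72.4 and 105 CPM on DNL919 day 1. Vehicle, with 57.2, 85.03 and 102 CPM, overlapped DNL919 day 1 over most of its range, and the change of Ifnar2 against it was -0.18 ± 0.17 (SE, adjusted p = 0.46). Ifnar1, Jak1 and Tyk2 had day 1 changes of 0.13, -0.27 and -0.48 and were not called.

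**Figure D5:**
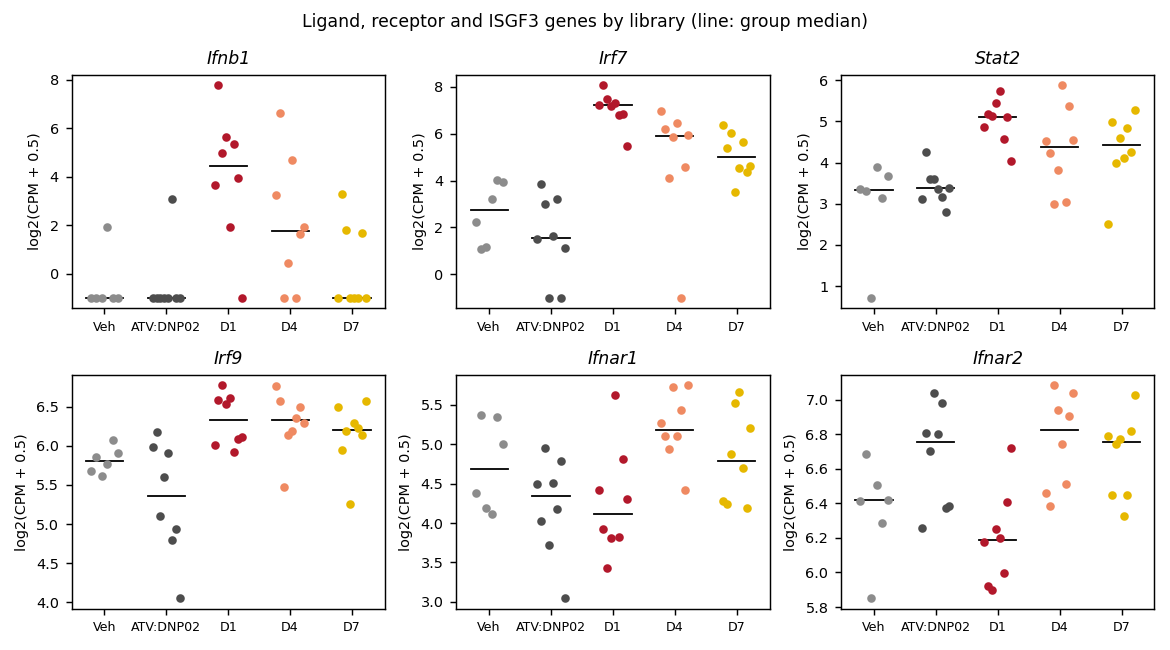
Level of 6 genes of the interferon pathway, as log2(CPM + 0.5), with 1 point per library, a line at the group median, and the groups as before. Ifnb1 is at 0 in 7 of 8 ATV:DNP02 libraries and spread from 0 to 218.3 CPM on day 1, Irf7 stands above the controls on day 1, and Ifnar2 has its lowest median, 72.4 CPM, on day 1.

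The interferon gamma arm, which signals through another receptor, had 1 gene up and 1 down of 5 tested on day 1 against ATV:DNP02. Against Vehicle it had 2 up and 1 down. The shares over all genes were 20.8% up and 15% down, and 19% and 14.4%, and 5 genes are too few to tell the arm apart from them. The receptor gene Ifngr1 fell by 0.89 on the log2 scale, from a median of 1304 CPM in ATV:DNP02 to 599.9 CPM. The chemokine gene Cxcl9 had 0 counts in all 14 control libraries and 217 counts in 6 of 8 DNL919 day 1 libraries, and was called higher on days 1 and 4. Cxcl9 was not called against Vehicle on day 4 (adjusted p = 0.0756). Irf1 had day 1 changes of 0.48 ± 0.20 (SE, adjusted p = 0.0517) against ATV:DNP02, which was not called, and of 0.67 ± 0.23 (SE, adjusted p = 0.0183) against Vehicle, which was. Of the interferon-inducible GTPases, which answer to both kinds of interferon and attack the membranes of intracellular pathogens, 7 of 11 tested rose on day 1, 2 on day 4 and 1 on day 7, and 0 fell on any day (all genes up: 20.8, 1.58 and 1.3%). Against Vehicle, 7 rose on day 1, 0 on day 4 and 0 on day 7 (all genes up: 19, 0.929 and 0.858%), and on day 1 Gbp3 was called there in place of Gbp5. Iigp1, Tgtp2 and Gbp2 rose most on day 1, by 5.46, 5.36 and 4.23, while Gbp3, Irgm2, Gbp7 and Gbp9 had changes of 0.76, 0.25, -0.47 and 0.16 against ATV:DNP02 and were not called.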

How the data were processed

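Microglia of 38 mice were profiled by polyA RNA-seq. Per the labels and the study's methods, the authors aligned reads with STAR to GRCm38.p6 and made raw counts per gene with featureCounts of Subread 1.6.2. The annotation release, the strand setting and the treatment of duplicates are not given in the sources used here. In the deposited counts, values of 100 or more carry at most 2 significant digits, and such values hold 91.3% of all counts. A sheet of normalized values and one of library sizes were not used.

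Groups came from the labels, which number no replicates, so numbers follow accession order and only name libraries. Genes were kept by filterByExpr of edgeR 4.0.16 (minimum count 10, total 15, proportion 0.7), scaled by TMM and tested with voom of limma 3.58.1 in R 4.3.3, with group and batch as terms over all 38 libraries and Benjamini-Hochberg adjustment. The sex comparison used group by sex with batch within sex. CPM were placed on log2 with a prior of 0.5. Ratios of pooled counts have exact 95% intervals, which cover counting error only. Alternatives were edgeR's quasi-likelihood test, DESeq2 1.42.0, other scalings, filters, covariates, weights, subsets and thinning. The scripts were tested on simulated data. Accounts were given for the highest member by CPM and the largest day 1 change in each class, every member not called on day 1, and the 5 smallest adjusted p on day 4 and on day 7. The members and lists were chosen with earlier results of these data known. 1 gene of the pathway is not reported here.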

Additional observations from a re-analysis of the deposited data

Results flagged for a closer look

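Among 104 groups of values, 21 held a library whose gap to its nearest neighbour was large beside the range of its group (Dixon's test at its 95% value); chance marks about 1 in 20 groups, and the values within a library are not independent. DNL919 day 1 replicate 8 was the lowest of its group in the median member difference (1.58, log2), in the summed level of the members (2076 CPM), and in Ifit3 (108.8 CPM), Ifit3b (14.1 CPM), Oasl2 (6.53 CPM), Usp18 (43.5 CPM), Rsad2 (7.25 CPM), Trim30a (79.8 CPM), Sp100 (31.9 CPM) and Ifi44 (0 CPM). DNL919 day 4 replicate 6 was the lowest of its group in the median member difference (-0.38, log2), in Ifi204 (4.09 CPM) and Slfn2 (41.8 CPM), and in Ifit3, Ifit3b, Zbp1 and Ifi44, each at 0 CPM. DNL919 day 4 replicate 7 had the lowest Samd9l of its group, 0.427 CPM. In ATV:DNP02, replicate 2 had the highest Ifit3b (15.5 CPM), and replicate 7 the lowest Ifitm3 (10.6 CPM) and Sp100 (2.35 CPM).

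The level after DNL919 differed between day 4 and day 1 by limma-voom for 24 members, of which 23 were lower and 1 was higher on day 4. Day 4 had no control of its own, so the effect of DNL919 was not compared between the days. The one that was higher was Uba7, with a log2 difference of 1.14.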

How the results depend on the processing

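Of the day 1 changes of single members against ATV:DNP02 that were followed over the settings, none reversed. Changes in other comparisons were not checked for their sign over all settings. For day 4 against day 1, the highest difference among the sensors and nucleases was -0.08 with all libraries. Without DNL919 day 4 replicate 6, Ddx60 and Ddx58 of that class had differences of 0.07 and 0.0036, neither of which was called. No paired analysis was possible because the labels carry no replicate numbers. Leaving out each library in turn gave 41 to 43 members called on day 1 against ATV:DNP02 (43 with all libraries), 14 to 30 on day 4 (22) and 8 to 16 on day 7 (11); against Vehicle it gave 35 to 40 on day 1 (39), 3 to 21 on day 4 (8) and 2 to 10 on day 7 (6); day 4 against day 1 gave 21 to 29 (24). For ATV:DNP02 against Vehicle, day 7 against day 4, and males against females, every such fit gave 0.

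Among the other settings, males alone gave 23 (day 1), 0 (day 4) and 0 (day 7) against ATV:DNP02, 14, 0 and 0 against Vehicle, and 6 for day 4 against day 1. That fit held 4 libraries in each DNL919 group and in ATV:DNP02, and 3 in Vehicle. The 4 libraries that stood apart in the members were all from males. The noncoding share as a covariate gave 5 on day 7 against ATV:DNP02, 23, 3 and 0 on days 1, 4 and 7 against Vehicle, and 15 for day 4 against day 1. No batch term gave 10 and 3 on days 4 and 7 against ATV:DNP02, and 4 and 2 against Vehicle. Sample quality weights gave 35 and 20 on days 4 and 7 against ATV:DNP02, and 27 and 11 against Vehicle. No filter on low counts gave 13 on day 4 against ATV:DNP02, and 3 and 1 on days 4 and 7 against Vehicle, and a minimum count of 50 gave 9 and 7 on days 4 and 7 against ATV:DNP02, with fewer genes tested. edgeR gave 18 on day 7 against ATV:DNP02 and 13 on day 4 against Vehicle. DESeq2 gave 19 on day 7 against ATV:DNP02, and 14 and 10 on days 4 and 7 against Vehicle. A fit of the compared groups alone gave 10 on day 7 against Vehicle. Of the settings chosen after seeing the data, leaving out both libraries of high neutrophil transcripts gave 21 and 10 on days 4 and 7 against Vehicle, and leaving out Vehicle replicates 5 and 6 gave 3 and 2. The cause of these shifts was not tested.

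Over all comparisons and settings, 479 counts of members stayed within 1.5 times their value and 48 did not. Counts of 0 that stayed at 0 are among the 479, and 38 of the settings left out a single library each. Of the day 1 changes of single members, taken over all settings, 991 kept their side of the threshold, 8 passed only in the alternative (Uba7, lower, in 6 and Trim25, higher, in 2) and 5 passed no longer. Library totals in place of TMM moved the median of all genes by 0.14 in the comparison of the sexes. Depth limits Oas3 and Phf11d, which did not pass the low-count filter (Phf11d was called higher on day 1 with no filter). It also limits the size of the folds of Rsad2, Ifi44, Oasl1 and Helz2, whose controls were near 0 counts. The same holds for Ifit3b, Oasl2, Oas2, Oas1a and Cmpk2, whose ATV:DNP02 median was 0 CPM. It holds for the day 1 medians of the IFIT and OAS classes too. Pooled ratios to ATV:DNP02 were below the fitted day 1 folds for Ifit3b (29.07), Oasl2 (43.4), Oas2 (4.799) and Cmpk2 (12.76). They were above the fitted folds for Rsad2, Oasl1, Oas1a and Helz2. Ifit2, Ifit3 and Samd9l also had ATV:DNP02 libraries without a count, and pooled ratios below the fitted folds.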
